A study of Mus musculus with 3 samples.

Results

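A total of 108 Aire-expressing thymic epithelial cells were found among 9349 hashtagged cells of 1 droplet lane, and what they transcribed was compared with the other 2904 cells that carried Epcam, an epithelial adhesion gene. The lane held wild-type, untreated mouse thymus cultures on day 13 (D13). The ORFTOC pool came from organoid reaggregate fetal thymic organ cultures, in which E16.5 thymic epithelial cells (TECs) expanded as organoids were combined again with E13.5 thymus cells depleted of EpCAM and with mouse embryonic fibroblasts. For the FTOC pool, fetal thymic organ cultures, whole E13.5 lobes were kept without dissociation in that same medium, which held FGF7. Each pool joined 2 cultures ahead of the antibody with an oligonucleotide tag (hashtag), HTO_1 for FTOC and HTO_2 for ORFTOC, so each was 1 sample and no test between groups was possible. Members were chosen by their UMI counts. A cell was taken as Aire-expressing when it held at least 2 unique molecular identifiers (UMIs, 1 per captured RNA molecule) of Aire and at least 1 of Epcam, at most 1 of the T cell gene Cd3e and at most 2 of the cortical proteasome gene Psmb11. Because these 4 genes chose the cells, their levels are a description. Intervals below are at 95%, exact Poisson for levels and Clopper-Pearson for shares, and cover counting error only.

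Medullary TECs (mTECs) present the body's own proteins to developing T cells, so that cells reacting to them are deleted or turned into regulatory T cells. AIRE is a nuclear protein that lets mature mTECs transcribe genes otherwise restricted to other tissues, each cell using its own small selection, and FEZF2 drives a further set. The maturation of these cells depends on the receptor RANK, and also on CD40 and the lymphotoxin receptor, through the NF-κB proteins RELB and NFKB2, with ligands coming from lymphoid cells. Mature Aire-expressing mTECs are known for high MHC class II and for costimulatory molecules such as CD80.

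The FTOC pool held 57 Aire-expressing cells among 1182 Epcam-positive cells, or 4.82% (3.67 to 6.20), and the ORFTOC pool held 51 among 1830, or 2.79% (2.08 to 3.65). ORFTOC thus gave 47.2% of the Aire-expressing cells (37.5 to 57.1) against 60.8% of all Epcam-positive cells (59.0 to 62.5). With a stricter hashtag limit (95% of a cell's hashtag UMIs in place of 80%) the shares were 8.38% and 2.82%. The FTOC share moved because that limit kept 77.2% of the FTOC Aire-expressing cells but only 42.8% of the other FTOC Epcam-positive cells. Of 137 hashtagged cells with at least 2 Aire UMIs, 5 held no Epcam UMI and 24 exceeded the limit on Cd3e (17 cells) or Psmb11 (10 cells), and these 24 stayed among the other Epcam-positive cells. A further 9 cells met every limit but carried hashtags of both pools and were not assigned.

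Aire UMIs per Aire-expressing cell ran from 2 to 29 in FTOC (median 10) and from 2 to 45 in ORFTOC (median 7). Just inside the threshold, 9 FTOC and 14 ORFTOC cells held exactly 2 Aire UMIs. Just outside it, 21 FTOC and 26 ORFTOC cells within the other limits held 1. Cells with 6 or more Aire UMIs made up 73.7% of the FTOC and 52.9% of the ORFTOC cells. The Aire-expressing cells were deeper than the others, with a median of 19265 UMIs per cell in FTOC and 15696 in ORFTOC against 11593 and 12920, and a limit on UMIs of 1 gene admits deep cells more readily. The summed depth was 1117909 UMIs in FTOC and 891445 in ORFTOC. RNA outside cells held little Aire, with 23 UMIs or 5.92 CPM (UMIs scaled to the same total in each group) in barcodes of 10 to 100 UMIs.

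Of the other mTEC markers, Fezf2 and Cd80 were higher in the Aire-expressing cells of both pools, and Ciita was higher by less than 2-fold. Fezf2 stood at 295 CPM in FTOC (264 to 329) and 349 in ORFTOC (311 to 390), against 15.7 and 18.8 in the other Epcam-positive cells, 18.9-fold and 18.5-fold higher. Cd80, the ligand of CD28 and CTLA4, stood at 66.2 CPM (52.0 to 83.1) and 72.9 (56.3 to 92.9) against 4.46 and 2.85. Ciita, the master activator of MHC class II transcription, stood at 93.0 CPM (76.0 to 113) and 97.6 (78.2 to 120) against 49.4 and 61.8. The intervals of the Aire-expressing cells did not overlap the values of the others for any of the 3 genes. The share of all genes with the same result is not given, so this describes counting error only. With every cell thinned to 5000 UMIs, which left out 3 ORFTOC Aire-expressing cells and 146 FTOC and 233 ORFTOC others, Fezf2 was detected in 54.4% of Aire-expressing cells in FTOC (40.7 to 67.6) and 54.2% in ORFTOC (39.2 to 68.6). The others stood at 2.96% and 3.17%. At full depth the shares were 61.4% and 70.6% against 4.27% and 4.55%. Lymphoid cells (no Epcam, at least 2 Cd3e UMIs; median 4109 and 7181 UMIs), which should lack Fezf2, held a UMI in 0.0975% and 0.0578% at full depth. In the mouse genome (GRCm38) Aire lies at chr10:78030022-78043610, Fezf2 at chr14:12338992-12346803, Cd80 at chr16:38457430-38495958 and Ciita at chr16:10480014-10531064. The labelled cell type therefore held its markers in both pools, though not in every cell.

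**Figure D1:**
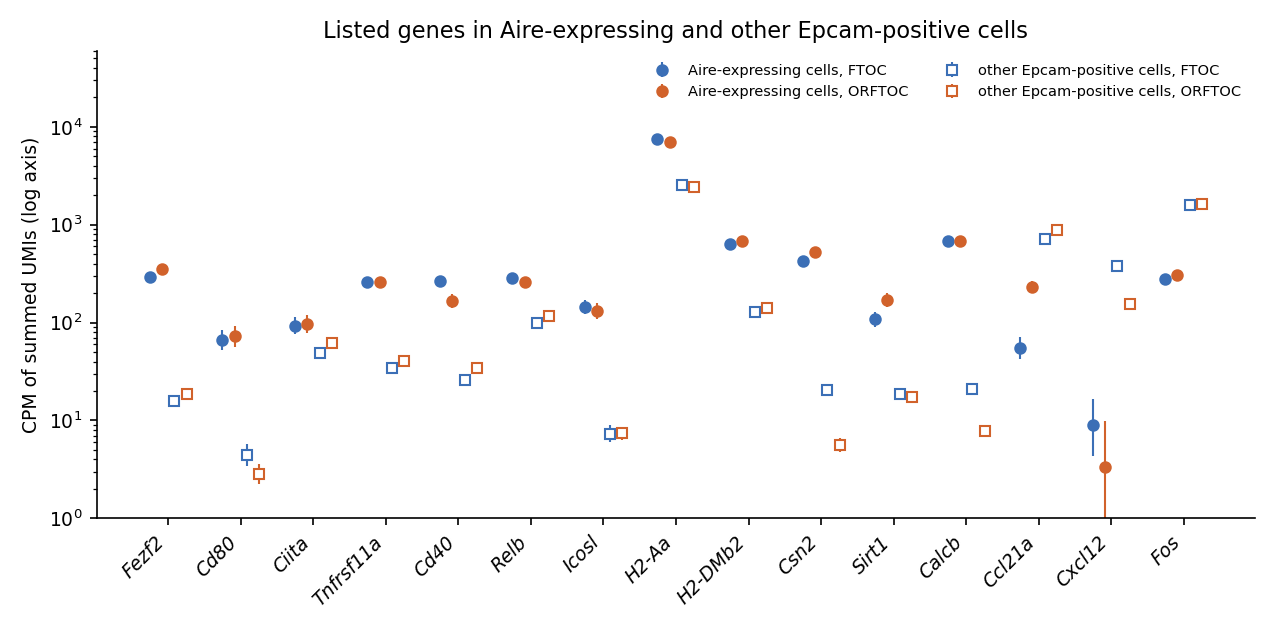
Summed level in CPM (log axis) of 15 listed genes in Aire-expressing cells (filled circles) and other Epcam-positive cells (open squares) of FTOC (blue) and ORFTOC (orange), with exact Poisson 95% intervals. Fezf2, Cd80, Tnfrsf11a, Cd40, Icosl, Csn2 and Calcb sat above the other cells in both pools, and Ccl21a, Cxcl12 and Fos sat below them.

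Across the transcriptome, 1700 genes reached 100 CPM in the higher of the compared groups in each pool. Of these, 205 were at least 2-fold higher in the Aire-expressing cells of both pools (12.1% of those tested) and 139 at least 2-fold lower (8.18%). The median log2 ratio of all tested genes was 0.0483 in FTOC and -0.00991 in ORFTOC. A gene below 100 CPM in 1 group could enter only through the other, where it had to be high. Among the 1085 genes at 100 CPM or more in all 4 sums, 45 were higher (4.15%) and 25 lower (2.3%). Neither share has a replicate check.

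The genes with the largest ratios shared by both pools are given here with what each is known for. The ileal bile acid carrier Fabp6 stood at 396 CPM in FTOC and 472 in ORFTOC against 1.46 and 0.619. The neuropeptide gene Calcb stood at 685 and 681 CPM against 20.8 and 7.80, with log2 ratios of 5.04 and 6.45. The milk protein gene Csn2 (β-casein) stood at 422 and 532 CPM against 20.5 and 5.65. Insm1, a transcription factor of neuroendocrine cells, stood at 380 and 245 CPM against 16.2 and 3.59. Among the others were Mt4 (a metallothionein of stratified epithelia), Tnmd (tenomodulin of tendon), the intestinal factor Cdx1, Hdc (which makes histamine), Prg2 (eosinophil major basic protein), Syt1 (a sensor of vesicle release in neurons), Sncg (γ-synuclein), Fezf2, Icosl and Gm13305. Gm13305 has near-identical copies, so its counts are uncertain.

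**Figure D2:**
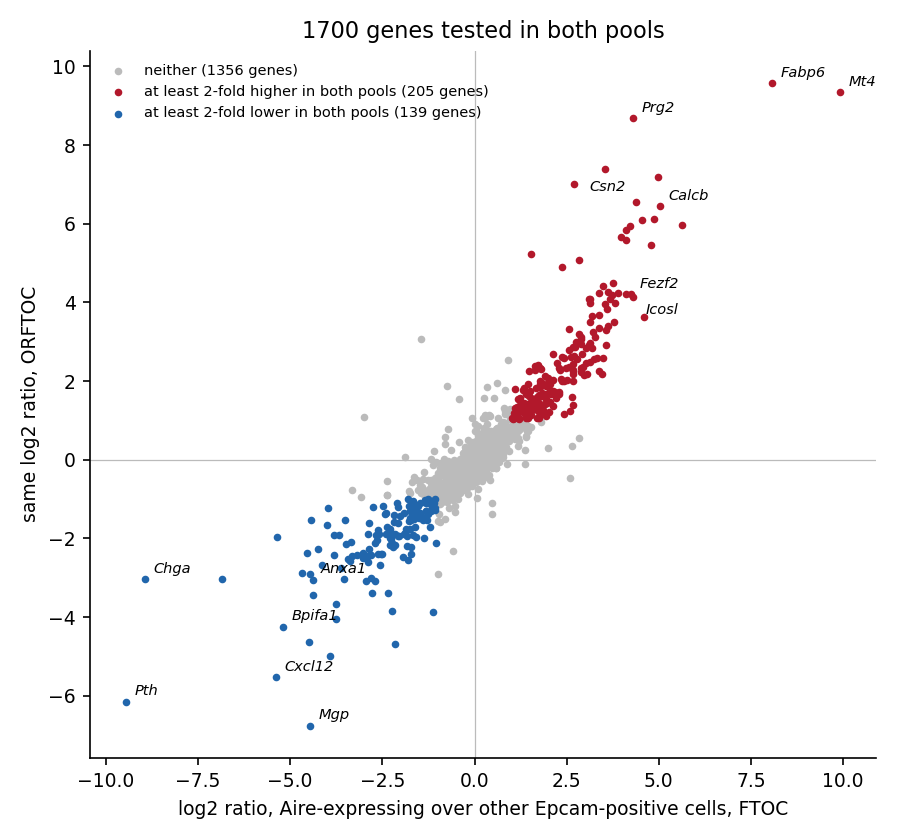
Log2 ratio of Aire-expressing over other Epcam-positive cells in FTOC (horizontal) and in ORFTOC (vertical) for the 1700 tested genes. The 205 genes at least 2-fold higher in both pools are red and the 139 lower genes blue, and Fabp6 and Mt4 lie farthest out on the high side.

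These genes differed in how many cells carried them. Calcb had a UMI in 43 of the 57 FTOC cells and 36 of the 51 ORFTOC cells, Insm1 in 43 and 31, and Csn2 in 29 and 26. Such genes were shared by most or many of the cells. Fabp6 was found in only 5 FTOC and 6 ORFTOC cells, and 1 cell held 56.0% and 68.9% of its UMIs. Mt4 was found in 5 and 3 cells, with 181 of 236 UMIs in 1 FTOC cell and 216 of 238 in 1 ORFTOC cell, against 2 and 10 UMIs in all other Epcam-positive cells. In Fabp6 the next cell held 189 and 113 UMIs, so 2 cells of each pool carried most of it, and in Mt4 1 cell did. The richest Aire-expressing cell of each pool was then left out gene by gene. Of the 205 genes, 163 stayed past both limits, 2-fold and 100 CPM. Mt4, Tnmd, Hdc and Prg2 of the genes named above did not. Here and below, a gene could drop out through the 100 CPM limit alone, with its fold intact. Dropping out therefore does not show that 1 cell made the ratio. Each Aire-expressing cell held a UMI of a median of 165 of the 205 genes in FTOC (55 to 189) and 148 in ORFTOC (81 to 195). Such breadth was not particular to the 205 genes. Their median gene was found in 78.95% of the FTOC and 74.51% of the ORFTOC cells, against 82.46% and 78.43% for all tested genes.

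**Figure D3:**
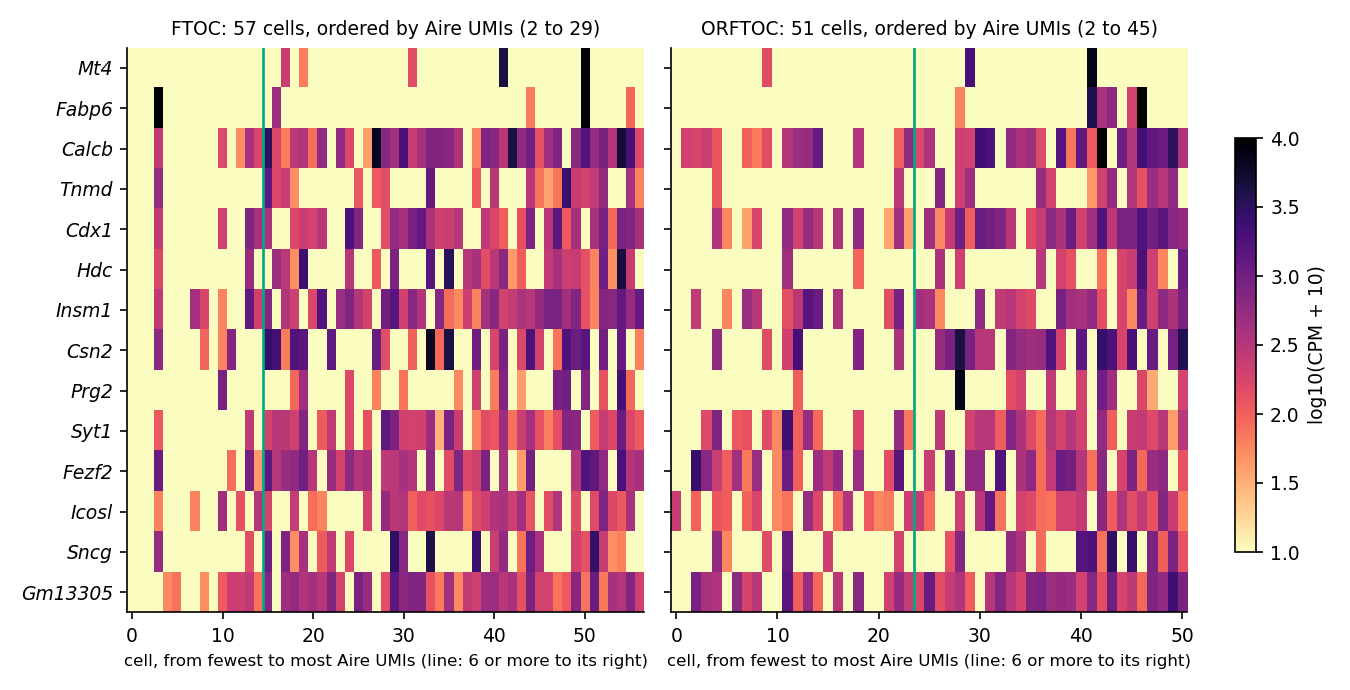
Level, as log10(CPM + 10), of 14 leading genes (rows) in each Aire-expressing cell (columns) of FTOC and ORFTOC, ordered by Aire UMIs, with cells of 6 or more Aire UMIs right of the line. Calcb and Insm1 were spread over many cells, whereas Mt4 and Fabp6 lit up a few.

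The sequences upstream of these genes were of different kinds. RefSeq start sites (GRCm38.p6) matched 164 of the 205 higher genes and 1385 of the 1700 tested. In the 250 bases upstream, the higher genes held a median of 12 CG pairs (quartiles 4.88 and 20.1), against 17 for all tested genes and 6 for all 27025 entries. The motif TATAAA, searched on both strands, was found in 14.0% of the higher genes, 10.8% of tested genes and 14.3% of all entries. A slightly smaller share of the lower genes matched (109 of 139), so their values are only a description. They held a median of 14 CG pairs (quartiles 4.0 and 19.0), also under the 17 of all tested genes. TATAAA was found in 17.4% of them, so neither feature was particular to the higher genes. Below are 5 of these windows, chosen after their values were seen to show both kinds. They are Aire itself, 2 genes of the immune dialogue rich in CG pairs (23 for Icosl, 31 for Tnfrsf11a) and 2 tissue-restricted genes with 2 CG pairs each. Each runs 5′ to 3′ on the gene's own strand and ends at the base before the start site, with CG pairs and TATAAA of either strand in capitals. Aire is at chr10:78043611-78043860 on the minus strand, Icosl at chr10:78069118-78069367 on the plus strand and Tnfrsf11a at chr1:105780473-105780722 on the plus strand. Csn2 is at chr5:87699426-87699675 and Fabp6 at chr11:43601563-43601812, both on the minus strand.
Aire: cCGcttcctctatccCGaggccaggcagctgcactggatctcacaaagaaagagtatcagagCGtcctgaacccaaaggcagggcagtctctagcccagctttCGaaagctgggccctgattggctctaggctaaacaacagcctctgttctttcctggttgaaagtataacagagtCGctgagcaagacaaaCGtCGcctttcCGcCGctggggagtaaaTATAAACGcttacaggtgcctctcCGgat
Icosl: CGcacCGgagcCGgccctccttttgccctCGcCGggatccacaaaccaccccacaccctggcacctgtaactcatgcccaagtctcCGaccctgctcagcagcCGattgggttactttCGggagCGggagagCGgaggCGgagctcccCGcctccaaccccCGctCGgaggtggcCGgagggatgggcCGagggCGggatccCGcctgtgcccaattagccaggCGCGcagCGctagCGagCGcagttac
Tnfrsf11a: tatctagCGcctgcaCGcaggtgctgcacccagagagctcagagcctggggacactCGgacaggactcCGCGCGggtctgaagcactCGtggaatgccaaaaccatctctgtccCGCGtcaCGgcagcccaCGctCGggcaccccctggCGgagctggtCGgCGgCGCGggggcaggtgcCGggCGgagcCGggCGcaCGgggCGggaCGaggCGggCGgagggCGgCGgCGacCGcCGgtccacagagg
Csn2: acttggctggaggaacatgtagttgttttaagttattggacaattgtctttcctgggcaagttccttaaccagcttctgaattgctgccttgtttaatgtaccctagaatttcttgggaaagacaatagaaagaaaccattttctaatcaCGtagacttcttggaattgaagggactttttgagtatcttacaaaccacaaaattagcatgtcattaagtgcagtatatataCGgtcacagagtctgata
Fabp6: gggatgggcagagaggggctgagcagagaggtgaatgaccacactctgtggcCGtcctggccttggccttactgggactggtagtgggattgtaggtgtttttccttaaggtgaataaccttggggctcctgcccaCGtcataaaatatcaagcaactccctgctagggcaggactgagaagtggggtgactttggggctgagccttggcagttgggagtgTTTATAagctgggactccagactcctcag
The Aire window held 11 CG pairs and 1 TATAAA. Matches to these letters are a description of the windows and say nothing of what bound there.

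Genes of the RANK and CD40 pathway were higher in the Aire-expressing cells. Of 15 listed genes 7 could be tested, and all 7 were at least 2-fold higher in both pools, with a median log2 ratio of 1.85 in FTOC and 1.45 in ORFTOC. Nfkbia was the only one of the 7 that reached 100 CPM in all 4 sums. The other 6 entered through the Aire-expressing cells, so the count describes them and supports no more. Over all tested genes the share higher was 12.1%. Tnfrsf11a, which encodes RANK, stood at 261 CPM in FTOC (232 to 293) and 259 in ORFTOC (227 to 295), against 34.5 and 40.4. Thinned to equal depth, it was detected in 63.2% and 58.3% of the Aire-expressing cells, against 11.8% and 16.4% of the others. The receptor was therefore also present in many Epcam-positive cells outside the gate. Tnfrsf11b, the secreted decoy for the RANK ligand, stood at 173.5 and 107 CPM against 7.17 and 8.62. It no longer passed both the 2-fold and the 100 CPM limit without its richest cells. Cd40 stood at 267 and 165 CPM against 25.7 and 34.5.

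The nuclear and inhibitory members followed with smaller ratios. Relb stood at 284.5 and 257 CPM against 98.9 and 116, and its partner Nfkb2 at 224.5 and 237 against 83.4 and 88.8. Nfkbia, the inhibitor of NF-κB that NF-κB itself induces, stood at 1811 and 1781 CPM against 536 and 651. Birc3, an inhibitor of apoptosis that NF-κB also induces, stood at 195 and 145 CPM against 54.2 and 60.5. Among the 8 members that did not reach 100 CPM in both pools, the adaptor genes Traf1 (75.1 and 126 CPM against 14.3 and 16.5) and Traf6 (48.3 and 40.4 against 15.7 and 18.9) had higher levels in both pools. The lymphotoxin receptor Ltbr had lower ones (33.1 and 30.3 against 80.9 and 92.5). Of the remaining 5, Map3k14, the kinase that releases RELB, stood at 22.4 and 13.5 CPM against 17.6 and 22.8. The ligands of these receptors are made by lymphoid cells. In Ptprc-positive cells Ltb stood at 637 CPM in FTOC and 528.5 in ORFTOC, the RANK ligand Tnfsf11 at 30.1 and 27.2, and Cd40lg at 4.26 and 1.69.

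Both costimulatory genes that could be tested were higher, a count that the filter fixed, since neither reached 100 CPM in the other Epcam-positive cells. Icosl, the ligand of ICOS on T cells, stood at 145 CPM (123.5 to 169) and 131 (108.5 to 157) against 7.31 and 7.43, with log2 ratios of 4.31 and 4.14. Cd40 was the other. The remaining 6 of the 8 listed ligands were under 100 CPM. Of these Cd70 stood at 42.9 and 60.6 CPM against 5.92 and 2.10, whereas Cd274, which encodes the inhibitory ligand PD-L1, stood at 27.7 and 28.0 against 42.9 and 93.8. Cd86 had only 10 and 8 UMIs.

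MHC class II genes were higher as a group and MHC class I genes were not. Of 11 class II presentation genes tested, 7 were at least 2-fold higher in both pools and 1 lower, with median log2 ratios of 1.52 and 1.34. Over all tested genes 12.1% were higher and 8.18% lower. The class II list rested less on the filter, since 6 of its 7 genes at 100 CPM or more in all 4 sums were higher. Among all genes at that level the share higher was 4.15%. Cd74, the invariant chain, stood at 21639 CPM in FTOC and 21995 in ORFTOC against 7566.5 and 7456. H2-Aa stood at 7439.8 (7281 to 7601) and 7001 (6828 to 7177) against 2546.5 and 2423. Among the helpers of peptide loading, H2-DMb2 was 4.97-fold and 4.83-fold higher, H2-Oa had log2 ratios of 1.96 and 1.93, whereas H2-DMa (log2 0.23 and 0.32) and H2-DMb1 (-0.80 and 0.41) were under 2-fold. Lgmn, an endosomal protease, was the lower gene, at 49.2 and 28.0 CPM against 157 and 104.8. Ctss, another one, was 7.11-fold higher in FTOC but 1.46-fold in ORFTOC. None of the 8 class I genes tested passed in either direction, with median log2 ratios of -0.139 and 0.076, and H2-K1 stood at 3412 and 3991 CPM against 3856 and 3919.

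Of 8 mTEC regulators tested, 5 were higher (Fezf2, Relb, Nfkb2, Irf8 and Spib) and Trp63 was lower. None of the 8 reached 100 CPM in all 4 sums, so the higher genes entered through the Aire-expressing cells and the count is only a description beside the 12.1% over all tested genes. The interferon regulatory factor Irf8 stood at 207.5 and 193 CPM against 78.8 and 79.0, and Spib, a factor that restrains mTEC maturation, at 145 and 124.5 against 22.9 and 31.4. Trp63, which keeps epithelial progenitors in many tissues, stood at 42.0 and 40.4 CPM against 192 and 121. Foxn1, the master factor of TECs, was just under 2-fold higher in FTOC (log2 0.97) and past it in ORFTOC (1.24). Of 10 genes for proteins that work with AIRE only 3 could be tested. Sirt1, a deacetylase that acts on AIRE, was higher, at 108 CPM (89.8 to 129) and 172 (145.5 to 201) against 18.5 and 17.3. It did not pass both the 2-fold and the 100 CPM limit once its richest cells were left out. Top1 (log2 -0.66 and -0.39) and Chd4 (-0.56 and -0.38) were under 2-fold.

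Of 5 mature mTEC genes tested, Ubd, Csn2 and Fgf21 were higher and Gp2, a microfold cell gene, was lower. The 3 higher genes did not reach 100 CPM in all 4 sums and so could be tested through the Aire-expressing cells, where they were high, and the share over all tested genes was 12.1%. The ubiquitin-like gene Ubd stood at 1076 and 1828.5 CPM against 103 and 96.2, and the hormone gene Fgf21 at 479.5 and 1192 against 54.6 and 69.9. Cd52 was 2.02-fold higher in FTOC and 1.74-fold in ORFTOC. Of 30 tissue-restricted self-antigen genes only Csn2 and S100a8 could be tested and both were higher, with the same limit. S100a8, a calcium-binding protein of neutrophils, was held by 10 and 11 cells and did not pass without its richest cells. Of the 29 found in the files, 12 had no UMI in FTOC and 15 had none in ORFTOC. Ins2 (insulin) was among them in both pools, with 0 UMIs in each, which allows 3 UMIs per pool. The major urinary protein gene Mup4 had 20 UMIs, all in 1 FTOC cell, and 0 in the other Epcam-positive cells of both pools.

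Lists for epithelial lineages that resemble other tissues gave few testable genes, so their summed levels are given. Muscle genes summed to 172 CPM in FTOC and 146 in ORFTOC against 97.6 and 16.3, and 33 and 30 cells held at least 1 UMI of them. Gut and liver genes summed to 97.5 and 174 CPM against 25.8 and 6.60, in 15 and 16 cells. Corneocyte-like genes summed to 407 and 709 CPM against 285 and 282. Of their UMIs, Ly6d alone gave 209 of 455 in FTOC and 521 of 632 in ORFTOC, 203 of the latter in 1 cell. The median Aire-expressing cell held 147 and 118 CPM of the corneocyte-like list. For the muscle, gut and liver, and corneocyte-like lists the sum was higher in both pools. Tuft genes summed to 43.8 and 35.9 CPM against 102 and 301, and ionocyte genes to 30.4 and 14.6 against 67.8 and 81.0. Neuroendocrine genes summed to 478 and 375 CPM against 1423 and 194, where Insm1 was higher and Chga, a protein of secretory granules, lower. The sign of Chga turned in ORFTOC when cells with Cd3e, Psmb11 or Ptprc were taken from the others. Of 3 airway genes tested, Bpifa1, an antimicrobial protein of the airways, and Wfdc2 were lower. Reg3g stood at 614 and 869 CPM against 644 and 417. Of 3 microfold genes tested, Spib was higher and Gp2 lower. Over all tested genes 12.1% were higher and 8.18% lower. Of the genes called in the airway and microfold lists, only Wfdc2 reached 100 CPM in all 4 sums. Bpifa1, Spib and Gp2 entered through the group where they were high, so these counts are a description.

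Chemokines moved in both directions. Of 8 tested, Ccl27a and Cxcl9 were higher and Ccl21a, Cxcl12 and Cxcl14 lower, beside 12.1% and 8.18% over all tested genes. Ccl27a, which has near-identical copies, and Cxcl9, a ligand of CXCR3 on T cells, did not pass without their richest cells, nor did they reach 100 CPM in the others. Ccl21a, which draws positively selected thymocytes into the medulla and also has near-identical copies, stood at 55.5 CPM in FTOC (42.5 to 71.1) and 231 in ORFTOC (201 to 265) against 710 and 873. Cxcl12, which holds immature thymocytes in the cortex, stood at 8.95 and 3.36 CPM against 375 and 154.5, among the lowest ratios of all. Ccl19 stood at 530.5 and 1216 CPM against 383 and 983.

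The 10 genes with the lowest shared ratios were Pth, Cxcl12, Serpinb11, Mgp, Bpifa1, Id1, Cxcl14, Ifit3b, Igfbp5 and Anxa1. Mgp, an inhibitor of calcification, had 17 UMIs in FTOC and 1 in ORFTOC against 4561 and 8844. Id1, a target of BMP signals, stood at 9.84 and 5.61 CPM against 150 and 180. Pth, the parathyroid hormone, had 2 UMIs and 1 UMI in the Aire-expressing cells and 25588 and 5793 in the others. Parathyroid markers summed to 1878 and 242 CPM in the others. The sign of Pth turned in ORFTOC when cells with Cd3e, Psmb11 or Ptprc were taken from the others, a ratio that rests on 1 UMI set to 3. Immature mTEC genes showed 1 higher of 8 tested (Krt17) and 3 lower (Ccl21a, Trp63 and Cxcl14). Cortical genes showed none higher of 7 and 3 lower (Prss16, Cxcl12 and Ctsl), a list that the limit on Psmb11 bears on directly. Over all tested genes 12.1% were higher and 8.18% lower. Epithelial identity genes were lower for Cdh1 (70.7 and 83.0 CPM against 199.6 and 231) and Pax1 and under 2-fold for the other 5.

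Immediate-early genes, which tissue dissociation also induces, were lower in the Aire-expressing cells. Of 7 tested, Fos, Fosb, Jun, Egr1 and Atf3 were lower and none higher, beside 8.18% lower over all tested genes. Fos stood at 277 and 310 CPM against 1577 and 1623, and Jun at 87.7 and 184 against 1080.1 and 1241. The median cell held 1339 and 1307 CPM of the whole list against 4846 and 5389 in the others, so the typical cell differed as the sums did. Within each pool both groups came from the same dissociated cultures and the same lane, and the cause of the difference was not tested.

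Of 6 cell cycle genes tested, Mki67, Cdk1, Ube2c and Cenpf were higher and none lower. None reached 100 CPM in all 4 sums, so these genes entered through the Aire-expressing cells, beside 12.1% higher over all tested genes, and Cenpf did not pass without its richest cells. Cdk1, the kinase of mitotic entry, stood at 195 and 163 CPM against 49.4 and 38.7. At least 20 UMIs of the 16 listed genes were found in 29.8% of the cells in FTOC and 25.5% in ORFTOC, against 9.87% and 9.28% of the others, at unequal depth. They were unevenly spread, since 5 FTOC and 4 ORFTOC cells were enough to hold 50% of these UMIs.

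Markers of other cell types were examined in the same cells. Thymocyte markers summed to 95.7 CPM in FTOC and 101 in ORFTOC, against 440 and 506 in the others, and 35 and 30 of the Aire-expressing cells held no UMI of the 11 genes. A rearranged TRB chain was found with 3 FTOC cells (5.26%, 1.10 to 14.6) and 1 ORFTOC cell (1.96%, 0.0496 to 10.5), against 12% and 13.3% of the others. Thymocyte signal was thus lower than in the cells of comparison, on which Cd3e was not limited. Dendritic cell markers summed to 48.3 and 86.4 CPM against 18.7 and 45.8. Ccr7 gave 31.3 and 46.0 CPM of these sums, and the rest lay in other listed genes. The defining marker Itgax was at 0 in both pools and Flt3 had 1 UMI and 0. At least 20 UMIs of the dendritic list were found in 2 ORFTOC Aire-expressing cells (3.92%) against 0.787% of the others. In FTOC the shares were 0% and 0.0889%. Whether these 2 cells were dendritic cells or doublets was not tested. B cell markers summed to 35.8 and 24.7 CPM against 4.61 and 3.55, with Cd79a at 0 and 4 UMIs and Ms4a1 at 1 and 0. Macrophage markers summed to 200.4 and 424 CPM against 111 and 794, and 33 and 17 cells held none. In ORFTOC the sum of the others lay in few cells, and the median cell held 137 CPM among the Aire-expressing cells against 0 among the others, of which 1153 of 1779 held none. At least 20 macrophage UMIs were found in 11.8% of the ORFTOC Aire-expressing cells and 4.55% of the others, and their part in the results was not tested. Mesenchymal markers summed to 129 and 247 CPM against 100.2 and 379, and endothelial markers to 1.79 and 4.49 against 4.90 and 7.84. In the 95 Aire-expressing cells with neither a Ptprc UMI nor a TCR contig, set against others without them, 197 of the 205 higher and 127 of the 139 lower genes were called again.

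Cells with more Aire UMIs differed from those with fewer beyond Aire itself. Cells with 6 or more were set against those with 2 to 5 (42 and 15 in FTOC, 27 and 24 in ORFTOC), a limit chosen after the values were seen. Of 1625 genes tested, 108 were at least 2-fold higher in both pools (6.65%) and 50 lower (3.08%). Sirt1 stood at 145 CPM against 3.42 (1 UMI) in FTOC and 318 against 26.8 in ORFTOC. Calcb stood at 907 against 58.1 and 1214 against 154, and Csn2 at 529 against 120 and 970.5 against 98.1. Ccl25, a chemokine of cortical and medullary TECs, stood at 675 against 6.84 (2 UMIs) and 1165 against 268. Among genes lower in the cells with more Aire, Krt5, a keratin of immature mTECs, stood at 250 against 1635 and 774 against 1775, and Ccl21a at 10.9 against 181 and 47.4 against 413. Both are known from early mTECs. Cell cycle genes gave no common direction, as they summed to 1897 CPM against 1382 in FTOC but 995 against 2514 in ORFTOC.

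Fezf2 and MHC class II could be followed down to cells without Aire. In FTOC Fezf2 stood at 6.0 CPM in Epcam-positive cells with no Aire UMI, 141 with 1, 134 with 2, 78.4 with 3 to 5 and 361 with 6 or more. In ORFTOC the values of Fezf2 were 12.3, 133, 370, 237 and 397 CPM. H2-Aa stood at 2456, 4705, 2803, 5281 and 8699 CPM in FTOC and at 2302, 3834, 4822, 4159 and 9554 in ORFTOC. Cells just outside the threshold carried Fezf2 near the level of those just inside it in FTOC, and below it in ORFTOC. The steps with 2 and with 3 to 5 Aire UMIs rested on 6 to 14 cells each.

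At equal depth the Aire-expressing cells did not hold more genes than the others, but more genes that are rarely detected among the others. With each cell thinned to 5000 UMIs, the median was 2031 genes per cell in FTOC and 2068 in ORFTOC, against 2104 and 2124. At full depth it was 4394 and 3931 against 3556 and 3779. A gene was called rarely detected when under 1% of the other Epcam-positive cells of the opposite pool held it at this depth. This gave 19602 genes for FTOC and 19505 for ORFTOC. That reference held no Aire-expressing cells but did hold the cell types of the others. Genes typical of Aire-expressing cells could therefore count as rare, so part of the difference was set by the definition. The Aire-expressing cells held a median of 51 such genes in FTOC (quartiles 28.0 and 123) and 70 in ORFTOC (23.8 and 104). The other Epcam-positive cells held 18 (14.0 and 24.0) and 17 (12 and 23). Of the Aire-expressing cells, 35 of 57 and 27 of 48 lay above the 95th percentile of the others. Cells with 6 or more Aire UMIs held a median of 66 and 89, and those with 2 to 5 held 23 and 26. Y-linked genes counted as rare in ORFTOC, since the FTOC reference lacked them, and Eif2s3y was the rare gene found in most ORFTOC cells (15).

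**Figure D4:**
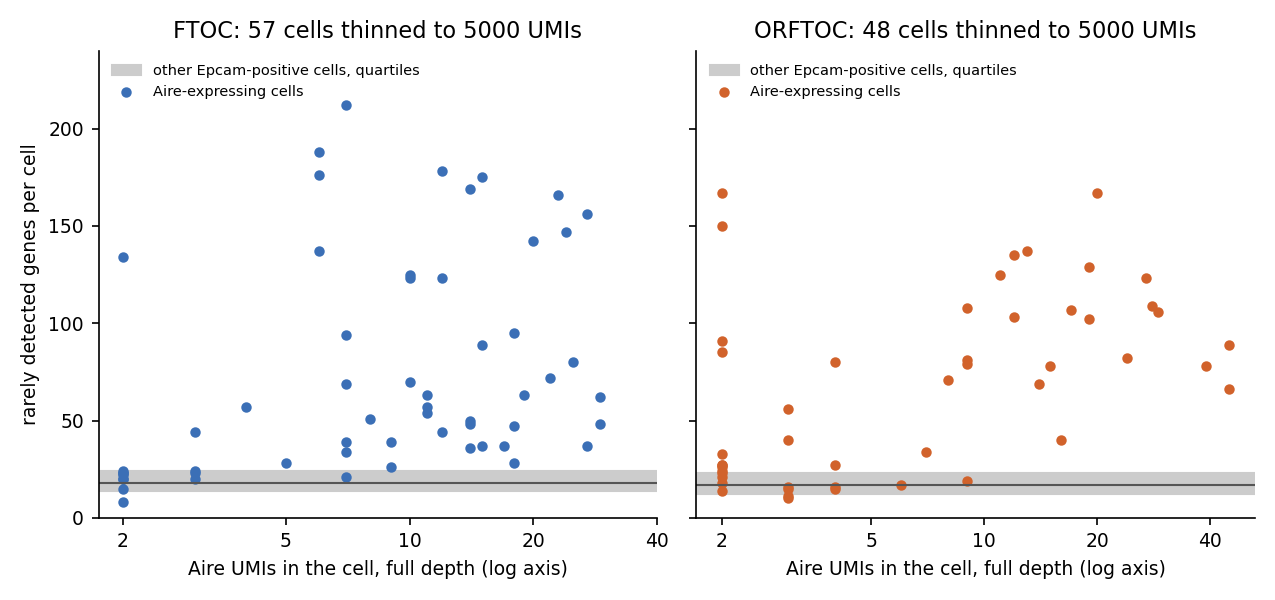
Rarely detected genes per Aire-expressing cell (points) against its Aire UMIs at full depth (log axis), with every cell thinned to 5000 UMIs. The grey band and line show the quartiles and median of the other Epcam-positive cells, at 18 in FTOC and 17 in ORFTOC, and most cells with 6 or more Aire UMIs lie above it.

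Most of the rarely detected genes were found in 1 Aire-expressing cell each. The Aire-expressing cells held 2120 distinct rare genes in FTOC and 1830 in ORFTOC, of which 67.1% and 66.6% were found in 1 cell alone. Insm1 was the most shared in FTOC, with 32 cells. Any pair of Aire-expressing cells shared a median of 3.51% of their rare genes in FTOC and 1.52% in ORFTOC, and pairs with 6 or more Aire UMIs 5.26% and 3.51%. Cells with tuft genes also held many rare genes, a median of 73 in FTOC (7 cells) and 78 in ORFTOC (27 cells), but pairs of them shared 7.19% and 10.1%. Cortical cells held 21 and 17, and cells with Ccl21a and Krt5 held 15 and 14, and pairs within either class shared a median of 0%, so low sharing was also found outside the Aire-expressing cells. For each class the reference left out cells of that class, so genes that defined a class could count as rare and shared in it. The shares over pairs are a description.

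Between the pools, the Aire-expressing cells of ORFTOC and FTOC differed by 2-fold or more in 96 of 1734 genes, 75 higher in ORFTOC (4.33%) and 21 lower (1.21%). The other Epcam-positive cells gave 52 (3.12%) and 20 (1.2%) of 1664. Of the genes described above, several receptors and markers differed by less than 2-fold between the pools and others by more. The log2 ratio of ORFTOC over FTOC was 0.24 for Fezf2 (0.01 to 0.47), 0.14 for Cd80 (-0.36 to 0.64), 0.07 for Ciita (-0.36 to 0.49), -0.01 for Tnfrsf11a (-0.27 to 0.24), -0.14 for Icosl (-0.50 to 0.21) and 0.02 for Cd74. Cd40 was lower in ORFTOC by less than 2-fold (-0.69, -0.99 to -0.40). Past 2-fold were Fgf21 (1.31) and S100a8 (1.82), higher in ORFTOC, and Hdc (-1.10), higher in FTOC, none of which passed without its richest cell. Of 7 mature mTEC genes tested between pools, 3 were higher in ORFTOC and 0 in FTOC. An interval that holds 0 covers counting error and does not show that the pools were alike beyond it.

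Many of the 96 differences lay in single cells. At least 50% of the UMIs of the higher pool lay in 1 cell for 26 of them, against 38 of all 1734 genes (2.19%). The 8 genes with the largest ORFTOC side were Nefh, Tff1, Gal, Lcn2, Camp, Igf1, Umod and Gp2. Nefh, a neurofilament gene, had 349 UMIs in ORFTOC, 309 of them in 1 cell, and 0 in FTOC. Tff1, a trefoil factor of the stomach, had 252 UMIs, 229 in 1 cell, and 0 in FTOC, and the neuropeptide Gal had 167, 145 in 1 cell, and 0. The 8 on the FTOC side were Reg3b, Tac1, 2210407C18Rik, Pgc, Igfbp6, Bglap3, Cxcl9 and Gstm1, and the sign of Gstm1 turned among cells with at least 3 Aire UMIs. Reg3b, an antimicrobial lectin of the gut, had 255 UMIs in 2 cells and 0 in ORFTOC. All 193 UMIs of Tac1, which encodes substance P, were in 1 cell, and Pgc, a stomach protease precursor, had its 159 UMIs in 2 cells.

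**Figure D5:**
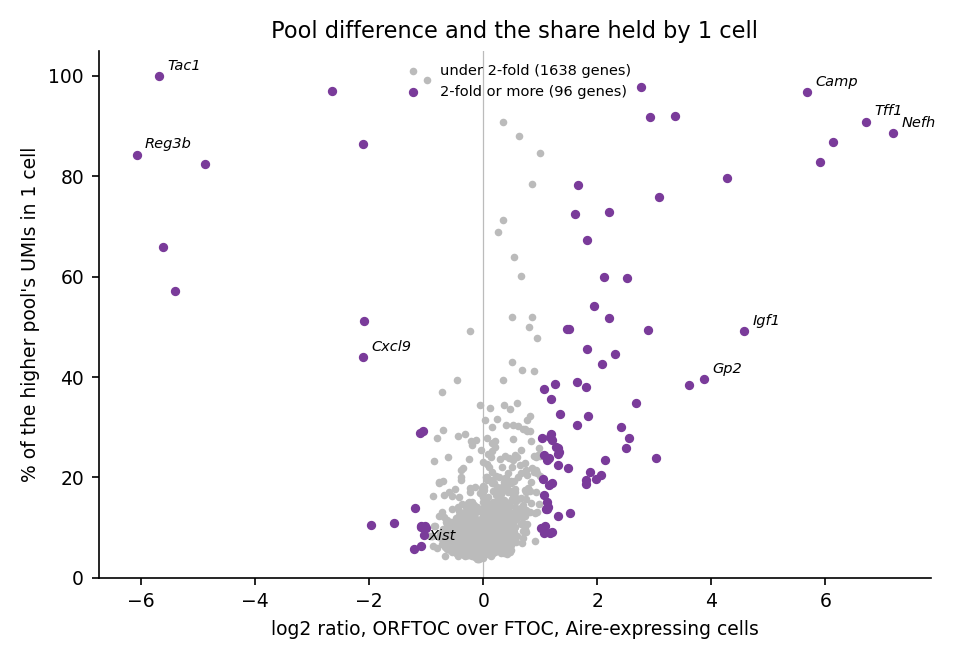
For each of 1734 genes tested between the pools in Aire-expressing cells, the log2 ratio of ORFTOC over FTOC (horizontal) and the share of the higher pool's UMIs found in its richest cell (vertical, %). Genes past 2-fold are purple, and Nefh, Tff1, Reg3b and Tac1 have over 80% of their UMIs in 1 cell, while Gp2 and Igf1 lie under 50%.

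When the richest cell of the higher pool was left out gene by gene, 47 of the 96 genes stayed past 2-fold, 41 fell under it and 8 changed sign, and 26 still reached 100 CPM. Of these 26, 20 were higher in ORFTOC and 6 in FTOC. On the ORFTOC side Anxa1, an inflammation-resolving annexin, had 189 UMIs in 19 cells against 29 in 14, and its log2 ratio was 3.03 and 2.70 without the richest cell. Tbata, a gene of cortical epithelium, had 663 UMIs in 36 cells against 289 in 29 (log2 1.52 and 1.38), and Cdkn2a, a cell cycle inhibitor, 166 in 36 against 90 in 31. Ccl21a had a log2 ratio of 2.06 and 1.76 without the richest cell. On the FTOC side Xbp1, a factor of the secretory pathway, had 137 UMIs in 43 cells against 47 in 21 (log2 -1.22 and -1.15). Xist had 381 UMIs in 53 cells against 142 in 23, and the Y-linked Eif2s3y had 0 in FTOC and 50 in 22 cells in ORFTOC, so sex-linked transcripts differed with the pool and cannot be told apart from it. Of the 96 genes, 30 were past 2-fold the same way in the other Epcam-positive cells, among them Tbata (log2 3.36), Cdkn2a (1.80), Anxa1 (1.69) and Xist (-1.30).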

How the data were processed

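The authors sequenced 1 droplet lane (Chromium 5′ kit), aligned the reads to mm10 with Cell Ranger 6.1.2 (the matrix header names version 4) and used Seurat 4.2.0. They deposited raw UMI counts for 705161 barcodes, not normalized, together with hashtag counts and T cell receptor contigs. Barcodes with at least 600 genes (10910), 0.4 to 10% mitochondrial UMIs (10245) and at least 80% of at least 10 hashtag UMIs in 1 tag were kept, which left 4112 FTOC and 5237 ORFTOC cells. The 896 cells with mixed tags were left out. No doublet caller was run, so doublets within a pool remain.

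UMIs were summed per pool and group and scaled to CPM, and genes needed 100 CPM in the higher group (in both pools for Aire-expressing against other cells). A call was a ratio of at least 2-fold, in both pools where groups of cells were compared. Sums under 3 UMIs were set to 3 before a ratio was taken. With 1 sample per pool there is no replicate error and no p-value. The pools cannot be told apart from the embryos, sex and cultures that made them. The 4 gate genes were left out of all calls. Named genes were the 15 highest and 10 lowest by the smaller ratio of the pools, the 8 at each end between pools, and members of fixed lists, of which some are not reported here. The members and lists were chosen with earlier results of these data known. Cells were thinned to 5000 UMIs without replacement for detection and genes per cell. Tuft cells held at least 3 UMIs over Trpm5, Gnat3 and Lrmp together, and cortical cells at least 3 of Psmb11. Ccl21a cells held at least 10 of Ccl21a with at least 2 of Krt5. Promoter windows and positions were RefSeq's on GRCm38.p6. Python 3.11.15, numpy 2.4.6, scipy 1.17.1, pandas 2.3.3 and matplotlib 3.10.9 were used, and the calls were tested on simulated data. The alternatives were other thresholds for Aire, Epcam, hashtags, depth and CPM, other sets of compared cells, equal weight per cell, subtraction of the ambient profile, and removal of cells with immune transcripts.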

Additional observations from a re-analysis of the deposited data

Results flagged for a closer look

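For 4 of the genes named between the pools, the ratio of Aire-expressing over other Epcam-positive cells had opposite signs in FTOC and ORFTOC, and the difference was not tested. The trefoil factor Tff1 had a log2 ratio of -3.06 in FTOC and 5.80 in ORFTOC. The neuropeptide Gal had -1.29 and 3.40, and the antimicrobial peptide gene Camp had -3.63 and 1.99. The FTOC values of these 3 genes rest on 0 UMIs in the Aire-expressing cells, set to 3. Gstm1, a glutathione transferase, had 1.47 in FTOC and -1.04 in ORFTOC. In the higher pool 1 cell held 229 of 252 UMIs of Tff1, 145 of 167 of Gal, 118 of 122 of Camp and 196 of 227 of Gstm1.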

How the results depend on the processing

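With 1 Aire UMI as the threshold the shares of Epcam-positive cells were 6.60% in FTOC and 4.21% in ORFTOC, with 3 UMIs the ORFTOC share was 2.02%, and with 95% of hashtag UMIs in 1 tag the FTOC share was 8.38%. Under the other settings they ran from 4.02% to 5.39% and from 2.10% to 3.27%. A filter of 50 CPM gave 383 higher and 311 lower genes in Aire-expressing cells, since it tests more genes, and 178 higher and 69 lower in ORFTOC against FTOC. With equal weight per cell 34 genes were lower in ORFTOC. Without the richest cell of each gene, a choice made after seeing the data, 20 and 6 remained. In ORFTOC the log2 ratio of Pth became 2.26 and that of Chga 6.0 once cells with Cd3e, Psmb11 or Ptprc were taken from the others. The value for Pth rests on 1 UMI in the ORFTOC Aire-expressing cells, set to 3, and does not show Pth to be higher in them. With at least 3 Aire UMIs the log2 ratio of Gstm1 between pools became 1.15. The cause of these changes was not tested, other than where stated. Of 1188 recomputed values of named genes, 758 stayed within the counting interval, 427 left it with the same sign and 3 changed sign. The ratio of genes per cell ran from 0.943 to 0.986, and that of rarely detected genes from 2.13 to 5.53. No paired analysis was possible because each pool is 1 sample and the labels give no replicate numbers. Depth limits low genes, since 0 UMIs in a pool allow up to 3.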

Other observations

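Several interferon-stimulated genes were lower in the Aire-expressing cells of both pools. Of 14 such genes, 11 could be tested, 8 were at least 2-fold lower and 0 higher. The list was chosen after their values were seen, so the count is only a description. Over all tested genes 8.18% were lower. Genes such as Ifit3, under 100 CPM in the Aire-expressing cells, entered through the others. Isg15, a ubiquitin-like protein induced by interferon, stood at 281 CPM in FTOC and 224 in ORFTOC against 1653 and 1427, with log2 ratios of -2.56 and -2.67. Ifit3 stood at 34.9 and 49.4 CPM against 403 and 404, and Ifi27l2a at 1220.1 and 1421 against 4069 and 3468. Within the Aire-expressing cells Isg15 stood at 189 CPM with 6 or more Aire UMIs against 540 with 2 to 5 in FTOC, and at 74.5 against 373 in ORFTOC.

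Genes outside the lists, also chosen after their values were seen, included enzymes and antigen presentation genes at high levels. Il4i1, an amino acid oxidase, stood at 1534 and 1699.5 CPM against 120 and 100.4, with log2 ratios of 3.67 and 4.08. Fscn1, which bundles actin, stood at 450 and 500.3 CPM against 55.1 and 70.6, and H2-Eb2, a class II gene, at 334 and 227 against 23.6 and 14.4. Ly6a, an interferon-responsive surface antigen, stood at 158 and 173 CPM against 1172 and 1058.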
